A study of Homo sapiens with 4 samples.

Results

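The genes described here are the protein-coding human genes with symbols between ZNF500 and ZNF799, letter-suffixed copies such as ZNF585A included. They were taken from the deposited gene table by symbol and biotype, which gave 219 of its 51103 genes, and another 290 numbered ZNF genes of the table serve as their nearest comparison. Most genes with such symbols encode classical zinc finger proteins, in which tandem fingers read DNA bases. Many of them carry a KRAB domain, which recruits the corepressor TRIM28 (KAP1) and, through it, the histone methyltransferase SETDB1, heterochromatin protein and deacetylase complexes. These proteins are known for silencing transposable elements, and their genes lie in tandem clusters, above all on chromosome 19. Several of the genes are known to carry promoter DNA methylation in carcinomas, which makes them of interest for a demethylating drug.

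Polyadenylated RNA was sequenced from 2 human lines catalogued as oral squamous cell carcinoma, CAL27 and SCC15. Each line was grown for 48 h with 10 µM decitabine (5-aza-2'-deoxycytidine), a cytidine analogue that traps DNA methyltransferases once it is in DNA, or with its solvent DMSO. There were 4 groups of 1 library each, namely CAL27 with decitabine, CAL27 with DMSO, SCC15 with decitabine and SCC15 with DMSO. The labels name no genetic change, and a line stands for 1 tumour grown in serum-containing medium on plastic. The question was which genes differ after the drug. The only replicate of the drug is the other line, and the only replicate of a line is its library with the other treatment. The p-values therefore rest on a spread between these 4 libraries that is mostly pooled across genes. They do not measure the spread between replicate cultures.

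Counted reads were 14714809 in CAL27 with decitabine, 14524461 in CAL27 with DMSO, 17583706 in SCC15 with decitabine and 14830807 in SCC15 with DMSO. Mitochondrial genes took 4.28% and 7.24% of the reads in CAL27 with decitabine and with DMSO, and 1.52% and 7.60% in SCC15. The squamous keratin gene KRT5 had 8359 and 8054 reads in the CAL27 libraries, with decitabine and with DMSO, and 1 and 0 in the SCC15 libraries. Over 8 squamous markers the summed level was 1022 and 1018 CPM (counts scaled to library size) in CAL27, against 3.88 and 1.22 CPM in SCC15, where 3 and 6 of the 8 were at 0. Over 6 neuroendocrine markers it was 4.01 and 2.89 CPM in CAL27, against 913 and 615 CPM in SCC15. The libraries labelled SCC15 therefore had the squamous markers of their labelled cell type at or near 0. They are called SCC15 by their label alone, and every difference between lines below is a difference between these labelled libraries.

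The contrasts below turn on genes that were read in one line and hardly or not at all in the other, so 7 promoter windows from RefSeq (build GRCh38.p14) are shown first. Each has 300 bases around the annotated start and is written in the direction of transcription. CG dinucleotides, the sites of DNA methylation, are in capitals. ZNF614 (chr19:52028330-52028629, minus strand), ZNF529 (chr19:36605208-36605507, minus strand) and ZNF566 (chr19:36489512-36489811, minus strand) had no read in CAL27. ZNF773 (chr19:57499688-57499987, plus strand), ZNF518B (chr4:10457377-10457676, minus strand) and ZNF556 (chr19:2867085-2867384, plus strand) had almost none in SCC15. ZNF554 (chr19:2819618-2819917, plus strand) was among the few that went past 10 reads with the drug.
ZNF614: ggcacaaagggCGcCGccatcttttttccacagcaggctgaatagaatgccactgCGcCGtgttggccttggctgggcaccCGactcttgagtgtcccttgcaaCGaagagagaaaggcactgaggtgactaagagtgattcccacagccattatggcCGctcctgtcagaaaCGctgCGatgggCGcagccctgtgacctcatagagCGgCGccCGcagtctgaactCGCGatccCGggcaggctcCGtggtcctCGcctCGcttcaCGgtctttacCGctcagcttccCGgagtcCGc
ZNF529: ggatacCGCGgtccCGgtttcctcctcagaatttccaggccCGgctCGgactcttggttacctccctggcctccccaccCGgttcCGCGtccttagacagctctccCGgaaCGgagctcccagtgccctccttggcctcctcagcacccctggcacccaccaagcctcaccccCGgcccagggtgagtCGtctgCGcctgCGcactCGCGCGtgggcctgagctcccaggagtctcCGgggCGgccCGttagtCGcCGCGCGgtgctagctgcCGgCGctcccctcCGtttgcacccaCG
ZNF566: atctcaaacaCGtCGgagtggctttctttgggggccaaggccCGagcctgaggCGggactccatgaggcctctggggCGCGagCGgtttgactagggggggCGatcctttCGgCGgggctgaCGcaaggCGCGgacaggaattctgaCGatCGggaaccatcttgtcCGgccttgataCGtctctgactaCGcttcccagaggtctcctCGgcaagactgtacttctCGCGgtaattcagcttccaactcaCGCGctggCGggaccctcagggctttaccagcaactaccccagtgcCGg
ZNF773: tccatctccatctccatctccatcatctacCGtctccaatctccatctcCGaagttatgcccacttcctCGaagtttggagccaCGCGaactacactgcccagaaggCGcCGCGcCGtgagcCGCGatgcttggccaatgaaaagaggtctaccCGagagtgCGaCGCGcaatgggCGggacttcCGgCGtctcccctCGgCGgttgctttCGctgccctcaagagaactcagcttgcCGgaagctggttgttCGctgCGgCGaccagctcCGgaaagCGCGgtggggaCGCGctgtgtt
ZNF518B: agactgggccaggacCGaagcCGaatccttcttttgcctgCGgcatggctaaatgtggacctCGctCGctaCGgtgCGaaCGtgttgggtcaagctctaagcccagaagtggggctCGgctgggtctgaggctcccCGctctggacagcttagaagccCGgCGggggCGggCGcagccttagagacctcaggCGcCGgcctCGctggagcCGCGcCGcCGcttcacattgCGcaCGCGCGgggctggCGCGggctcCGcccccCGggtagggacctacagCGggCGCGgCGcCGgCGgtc
ZNF556: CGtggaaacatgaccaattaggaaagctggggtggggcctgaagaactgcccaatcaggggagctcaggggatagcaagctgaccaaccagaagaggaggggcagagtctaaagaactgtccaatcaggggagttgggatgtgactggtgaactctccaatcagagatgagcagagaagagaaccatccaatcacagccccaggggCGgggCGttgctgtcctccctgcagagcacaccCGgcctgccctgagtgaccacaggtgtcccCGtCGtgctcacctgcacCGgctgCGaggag
ZNF554: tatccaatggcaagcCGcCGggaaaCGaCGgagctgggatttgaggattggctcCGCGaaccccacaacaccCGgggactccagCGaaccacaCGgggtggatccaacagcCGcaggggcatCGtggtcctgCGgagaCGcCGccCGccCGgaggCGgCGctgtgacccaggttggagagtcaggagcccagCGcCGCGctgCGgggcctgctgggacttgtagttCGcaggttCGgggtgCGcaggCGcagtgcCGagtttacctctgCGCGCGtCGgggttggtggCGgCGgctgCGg

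The windows held 23 CG dinucleotides in ZNF614, 28 in ZNF529, 25 in ZNF566, 30 in ZNF773, 35 in ZNF518B, 8 in ZNF556 and 34 in ZNF554. CG reads the same on both strands. Of all 35116 RefSeq promoter windows of this length, 96.0% held at least 1 CG and 48.9% held at least 15. A promoter window was found for 179 of the 219 genes. The median was 20 CG over the 23 such genes that were off in CAL27, 30 over the 5 off in SCC15, 23 over the 107 counted in all 4 libraries, and 16 over the 30 at most barely read anywhere. It was 22 over all 179, over the 247 other numbered ZNF genes with a window, and over 14726 other protein-coding genes. Methylation itself was not measured in these libraries.

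The zinc finger genes took a small share of the reads. The 219 genes together took 0.266% and 0.268% of the reads in CAL27 with decitabine and with DMSO, and 0.313% and 0.296% in SCC15. The median gene had 63 and 70 reads in CAL27 and 94 and 88 reads in SCC15, with decitabine and with DMSO. On the authors' length-corrected scale (FPKM, fragments scaled by gene length and by library size) the median was 0.892 and 0.979 in CAL27, against 1.01 and 1.14 in SCC15. At least 10 reads were counted for 140 and 137 of the 219 genes in CAL27 with decitabine and with DMSO, and for 163 and 159 in SCC15. These were 63.9% and 62.6% of the group in CAL27, against 64.6% and 62.2% of other protein-coding genes, and 74.4% and 72.6% in SCC15, against 62.9% and 60.2%. No read was counted for 66 and 71 genes in CAL27, against 37 and 38 in SCC15. A count of 0 allows up to 3 reads, or 0.185 and 0.206 CPM in CAL27 with decitabine and with DMSO, and 0.179 and 0.214 CPM in SCC15. All such limits and the intervals below cover counting error only.

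**Figure D1:**
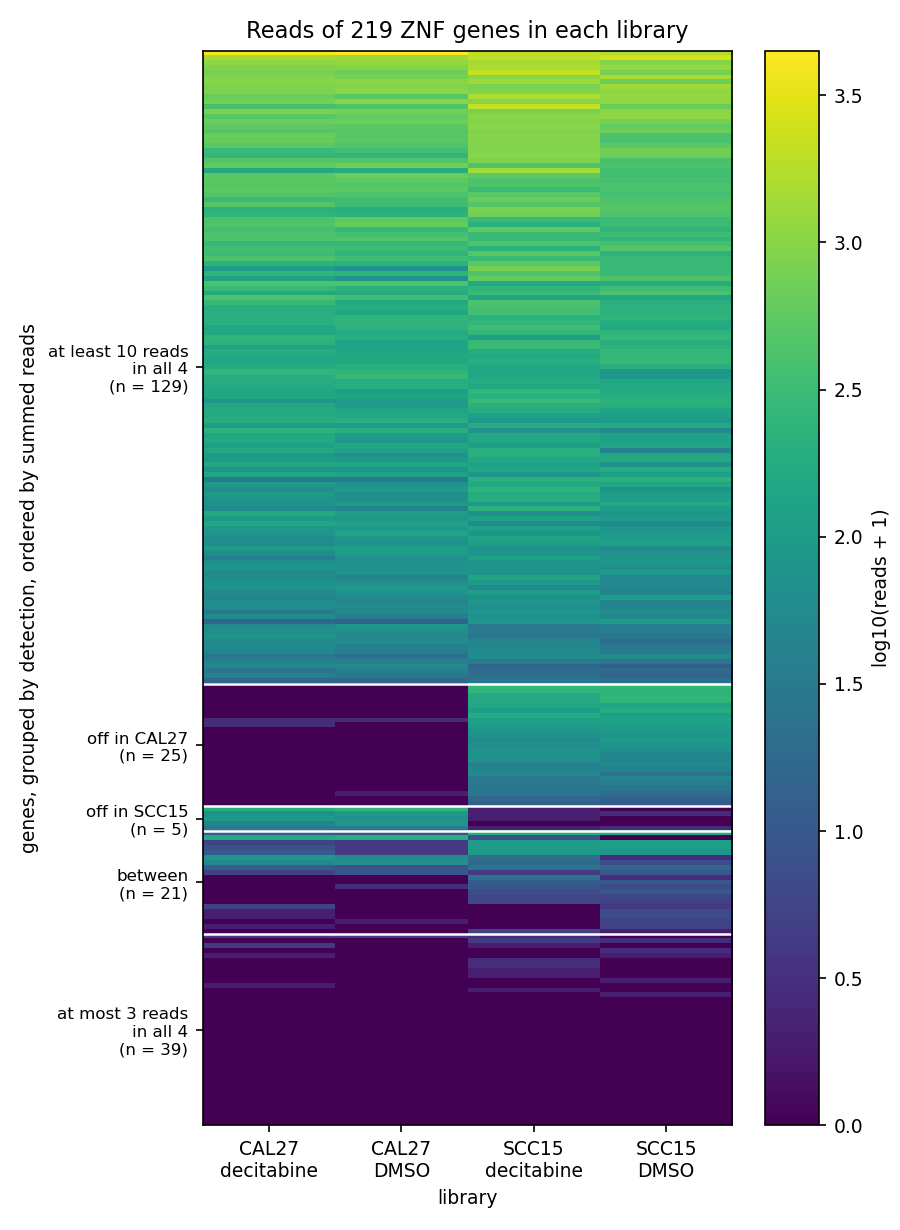
Reads of the 219 ZNF genes (rows, as log10 of reads plus 1) in each of the 4 libraries (columns), grouped by detection and ordered within a group by summed reads. The 25 genes off in CAL27 form a dark block in both CAL27 columns, and the 5 off in SCC15 a dark block in both SCC15 columns, as the definition of these classes requires.

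By detection the genes fell into 5 classes. At least 10 reads in all 4 libraries were counted for 129 genes. A gene is called off in a line when it had at most 3 reads in both libraries of that line and at least 10 in both of the other: 25 genes were off in CAL27 and 5 in SCC15. At most 3 reads in every library were counted for 39 genes (17.8%, against 24.1% of other protein-coding genes), and 21 genes fell between these classes. Exons of another annotated gene overlap 74 of the 129 genes, 13 of the 25, 3 of the 5 and 20 of the 39. The strand setting of the counting is not given, and its part in the low counts was not tested.

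The highest levels were those of ZNF664, ZNF622, ZNF768, ZNF787 and ZNF598, in this order of mean FPKM. ZNF664 had 42.4 and 48.7 FPKM in CAL27 with decitabine and with DMSO, and 18.1 and 17.4 FPKM in SCC15. The difference between lines passed the test, with a log2 fold change of 1.21 ± 0.29 (CAL27 over SCC15, SE, adjusted p = 0.000721 by edgeR's quasi-likelihood test, which is used for all adjusted p below). ZNF622, a factor of large ribosomal subunit maturation, had 27.5 and 28.6 FPKM in CAL27 and 31.3 and 30.4 FPKM in SCC15, and its line difference did not pass (log2 fold change -0.29 ± 0.28, adjusted p = 0.441). ZNF768 had 19.5 and 13.9 FPKM in CAL27 and 37.6 and 32.0 FPKM in SCC15 (log2 fold change -1.22 ± 0.28, adjusted p = 0.000528). ZNF787 had 16.1 and 17.4 FPKM in CAL27 and 24.7 and 21.7 FPKM in SCC15 (adjusted p = 0.073). ZNF598, the ubiquitin ligase that senses collided ribosomes, had 15.8 and 17.6 FPKM in CAL27 and 17.9 and 13.7 FPKM in SCC15 (adjusted p = 0.898). In SCC15 ZNF768 stood above ZNF622 and in CAL27 below it.

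Chromosome 19 holds 113 of the 219 genes. Among the 39 genes at most barely read, 26 had 0 reads in all 4 libraries and 27 lie on chromosome 19. They include ZNF536, a regulator of neuronal differentiation, the ZNF705 copies ZNF705A, ZNF705B, ZNF705D and ZNF705E, and the chromosome 19 genes ZNF726, ZNF728, ZNF729 and ZNF730. Reads of near-identical copies such as the ZNF705 genes may be split or dropped in counting, so their values are uncertain. ZNF593, a ribosome assembly factor named after its values were seen, was listed at 0 in every library. Exons of AL391650.1 on the opposite strand cover much of it, so its 0 cannot be read as absence.

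The clearest pattern was a set of zinc finger genes that were silent in CAL27. The 25 genes off in CAL27 summed to 4 and 3 reads there, with decitabine and with DMSO, against 2282 and 2454 reads in SCC15. Of these, 22 had 0 reads in both CAL27 libraries. The 25 were 15.7% of the 159 genes with at least 10 reads in both SCC15 libraries. The same share was 11.7% (26 of 223) of the other numbered ZNF genes and 2.96% (346 of 11682) of the protein-coding genes outside the group. In the other direction, 5 of 137 genes (3.65%) were off in SCC15, against 5 of 202 other numbered ZNF genes and 4.23% (513 of 12127) of the other protein-coding genes. The 5 summed to 433 and 524 reads in CAL27 and to 4 and 4 in SCC15. In bulk RNA, fewer expressing cells and less RNA per cell cannot be told apart.

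The 8 with the most SCC15 reads are named here. ZNF738 (ENSG00000172687, chromosome 19, GENCODE 29 coordinates on GRCh38, 21358930 to 21379302) had 0 and 0 reads in CAL27 with decitabine and with DMSO, against 272 and 270 reads in SCC15. It was at least 181-fold lower in CAL27, taking the floor of 3 reads over both libraries (adjusted p = 9.63e-13). ZNF614 (ENSG00000142556, chromosome 19, 52012765 to 52030240) had 0 and 0 reads in CAL27, against 256 and 244 in SCC15, at least 167-fold lower (adjusted p = 1.96e-12). ZNF680 (ENSG00000173041, chromosome 7, 64519884 to 64563106) had 0 and 0 reads in CAL27, against 170 and 243 in SCC15, at least 138-fold lower (adjusted p = 1.1e-11). The groups do not overlap in any of these genes, which the definition of off already fixes. The genes also entered the line test only through SCC15, where they are high, so these p-values are no separate support.

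ZNF529 and ZNF566, close together on chromosome 19, both had 0 and 0 reads in CAL27. In SCC15 with decitabine and with DMSO, ZNF529 had 159 and 243 reads and ZNF566 had 109 and 181. They were at least 134-fold and at least 96.7-fold lower in CAL27. ZNF736, on chromosome 7 like ZNF680, had 0 and 0 reads in CAL27, against 156 and 137 in SCC15. ZNF649, a KRAB repressor gene, had 0 and 0 reads in CAL27, against 175 and 113 in SCC15. ZNF708 was not fully silent, with 2 and 2 reads in CAL27 against 117 and 134 in SCC15, and its SCC15-over-CAL27 ratio was 62.8 with a 95% counting interval of 24.2 to 232. The remaining 17 genes had 12 to 106 reads in SCC15 with decitabine (median 51) and 11 to 119 with DMSO (median 45). On the FPKM scale even the silent set was modest where it was on: its 25 genes ran from 0.0847 to 3.96 FPKM in SCC15 with decitabine and from 0.0920 to 4.66 FPKM with DMSO. All 25 passed the line test, with adjusted p between 9.63e-13 and 0.00418, but they entered the test only through the line in which they are high.

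**Figure D2:**
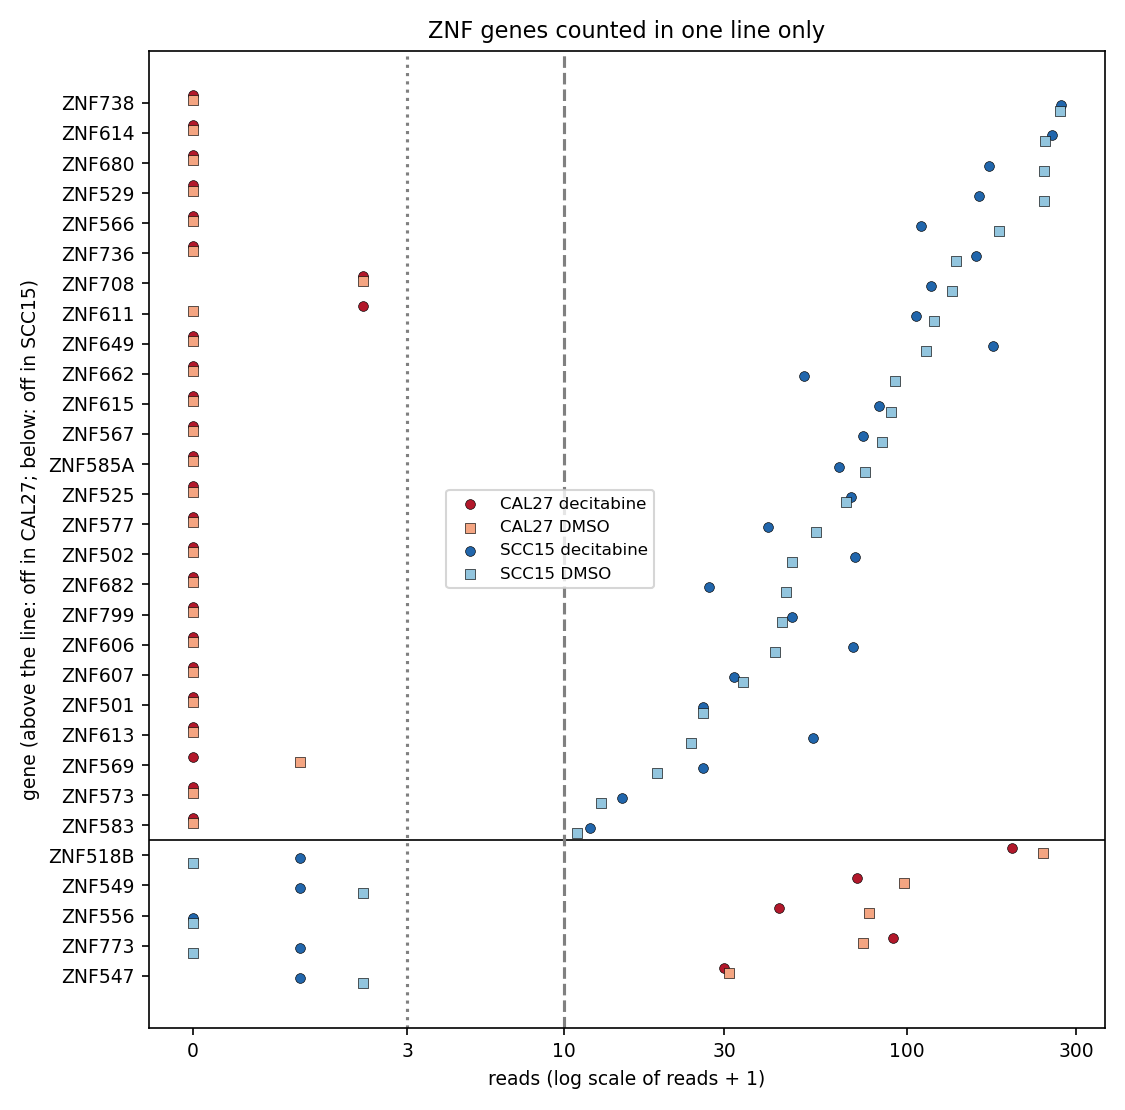
Reads per library (log scale of reads plus 1) for the 25 genes off in CAL27 (above the solid line) and the 5 off in SCC15 (below it), circles for decitabine and squares for DMSO. The dotted and dashed lines mark 3 and 10 reads. In the upper part all CAL27 points lie at 3 reads or fewer and all SCC15 points at 11 or more, limits that the choice of these genes sets for both treatments.

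The 5 genes off in SCC15 were led by ZNF518B (ENSG00000178163, chromosome 4, 10439874 to 10457410), which had 197 and 242 reads in CAL27 with decitabine and with DMSO and 1 and 0 in SCC15. Its product is known to bind the histone methyltransferase G9a. Its CAL27-over-SCC15 ratio was 439 with a counting interval of 78.4 to 17376. ZNF549 had 72 and 98 reads in CAL27, against 1 and 2 in SCC15. ZNF773 had 91 and 75 reads in CAL27, against 1 and 0 in SCC15. ZNF556 had 43 and 78 reads in CAL27, against 0 and 0 in SCC15, at least 40.3-fold higher in CAL27. ZNF547 had 30 and 31 reads in CAL27, against 1 and 2 in SCC15. All 5 passed the line test, but they too entered it only through the line in which they are high.

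The genes off in CAL27 lay mostly on chromosome 19, in its zinc finger clusters. On chromosome 19, 20 of the 71 genes with at least 10 reads in both SCC15 libraries were off in CAL27 (28.2%), close to the 25.3% (23 of 91) of the other ZNF genes there. Genes of chromosome 19 without a zinc finger name were off in 22 of 645 cases (3.41%). On the other chromosomes, 5 of 88 genes were off in CAL27 (5.68%): ZNF501, ZNF502 and ZNF662 on chromosome 3, and ZNF680 and ZNF736 on chromosome 7. The difference between chromosome 19 and the rest was not tested, since genes of a cluster are not independent.

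Of the 20 genes on chromosome 19, 12 lay in unbroken runs, stretches of consecutive protein-coding genes with at most 3 reads in both CAL27 libraries and at least 4 genes on in SCC15. There were 5 such runs in CAL27, all on chromosome 19 and all with a gene of the group. They held 84 genes, of which 35 belong to the group, 34 are other numbered ZNF genes and 11 have no zinc finger name. By that rule low with both treatments, the 84 genes summed to 5 and 8 reads in CAL27 with decitabine and with DMSO, against 2580 and 2868 reads in SCC15, where 30 of them had at least 10 reads in both libraries. SCC15 had 4 runs by the same rule, on chromosomes 12, 2, 6 and 7, and none held a gene of the group or any zinc finger name.

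Some runs lay next to genes read in both lines, as the run from ZFP14 to ZNF585A does. It spans chr19:36334453-37210512 and holds 16 genes, 8 of which were on in SCC15. Within it ZNF566, ZNF260, ZNF529, ZNF567 and ZNF850 follow each other with 0 reads in both CAL27 libraries at 75 to 314 reads in SCC15, interrupted only by ZNF382 and ZNF461, which were low in both lines. The gene before the run, ZNF146, had 1691 and 1976 reads in CAL27 with decitabine and with DMSO, and 1189 and 2391 in SCC15. The gene after it, ZNF585B, had 28 and 53 reads in CAL27, against 81 and 59 in SCC15. ZNF585B and the silent ZNF585A are close copies, so reads may be shared between them.

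The longest run had 29 genes, from ZNF610 to ZNF525, and summed to 3 and 4 reads in CAL27, against 920 and 1025 in SCC15. Only ZNF611 and ZNF525 of the group were on in SCC15 there, with ZNF83, ZNF28, ZNF468, ZNF160 and others of lower or higher number. The run ZNF708 to ZNF91 had 20 genes, with 2 and 2 reads in CAL27, against 529 and 565 in SCC15. Its neighbours were ZNF431, with 411 and 355 reads in CAL27, against 181 and 196 in SCC15, and ZNF675, with 4 and 3 reads in CAL27, against 100 and 115 in SCC15. The run ZNF569 to WDR87 had 11 genes, 8 of them in the group, with 0 and 1 reads in CAL27, against 125 and 121 in SCC15. The gene that follows it, SIPA1L3, which is no zinc finger gene, had 989 and 749 reads in CAL27, against 2115 and 663 in SCC15. The run ZNF253 to ZNF66 had 8 genes, with 0 and 0 reads in CAL27, against 110 and 109 in SCC15. Its neighbours were themselves low in CAL27: ZNF506 had 10 and 8 reads there, against 203 and 174 in SCC15, and ZNF85 had 4 and 0, against 3 and 5.

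A further stretch missed the rule through a single gene. ZNF577, ZNF649, ZNF613, ZNF615 and ZNF614 had 0 reads in both CAL27 libraries. ZNF350 lies among them and had 4 reads in CAL27 with decitabine and 0 with DMSO, against 116 and 119 in SCC15. ZNF432, the next gene after ZNF614, had 90 and 82 reads in CAL27, against 223 and 195 in SCC15. The other 3 genes off in CAL27 on this chromosome were ZNF799, ZNF583 and ZNF606.

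Of the 5 genes off in SCC15, 4 lie on chromosome 19, which holds 113 of the 219 genes. The 4 were 7.41% of the 54 genes of the group there with at least 10 reads in both CAL27 libraries. The share was 2.86% (2 of 70) of the other ZNF genes there and 3.79% (25 of 660) of genes there without a zinc finger name. Near each other lie 3 of the 4. ZNF773 and ZNF549 are consecutive in the gene order. ZNF547, ZNF773 and ZNF549 lie within one stretch of chromosome 19 (57363477 to 57557542) in which ZNF548, after ZNF547, had 185 and 199 reads in CAL27, against 89 and 96 in SCC15. ZNF550, which overlaps ZNF549 on the opposite strand, had 174 and 161 reads in CAL27, against 122 and 119 in SCC15. ZNF530, further along, had 174 and 210 reads in CAL27, against 8 and 0 in SCC15.

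**Figure D3:**
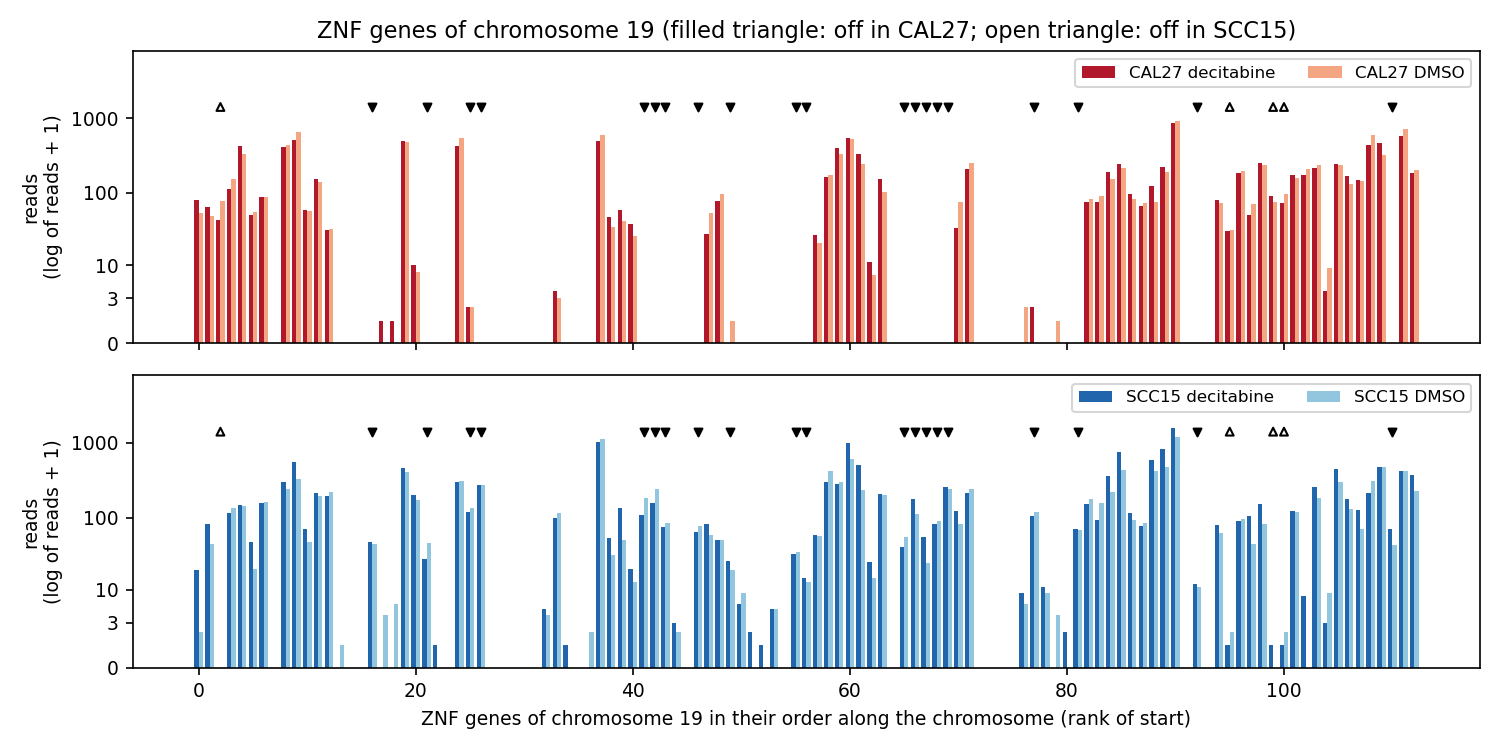
Reads (log scale of reads plus 1) of the ZNF genes of chromosome 19 in their order along the chromosome, CAL27 above and SCC15 below, the left bar of each pair for decitabine and the right for DMSO. Filled triangles mark the 20 genes off in CAL27, most of them side by side, and open triangles the 4 off in SCC15.

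Few silent zinc finger genes reached 10 reads with decitabine, in a share close to that of other genes or below it. With decitabine, 1 of the 79 genes with at most 3 reads in CAL27 with DMSO had at least 10 (1.27%), against 2.98% of the other protein-coding genes so low with DMSO. In SCC15 it was 2 of 49 (4.08%), against 4.33%. Of the genes at 0 reads with DMSO, 63 of 71 in CAL27 and 28 of 38 in SCC15 were still at 0 with decitabine (88.7% and 73.7%, against 76.7% and 77.9% of other protein-coding genes). Among the other numbered ZNF genes the shares were 83.6% (61 of 73) in CAL27 and 67.4% (31 of 46) in SCC15. Of the 71 and the 38, 0 and 0 had reached 10 reads, where 0.731% and 1.70% of the other genes had, shares too small to show in sets of this size. The reverse, at least 10 reads with DMSO and at most 3 with decitabine, was seen for 0 of 137 genes in CAL27 and 0 of 159 in SCC15, and was rare among other protein-coding genes too (0.163% and 0.371%). Of the windows shown above, that of ZNF554, which reached 10 reads, held 34 CG.

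The 3 genes that reached 10 reads had 10 to 21 reads with decitabine. ZNF785 in CAL27 had 10 reads with decitabine and 3 with DMSO, and its log2 counting interval of -0.38 to 4.08 included 0. In SCC15 it was on with both treatments, at 101 and 83 reads. ZNF630, on chromosome X, had 21 reads with decitabine and 2 with DMSO in SCC15 (log2 ratio 2.34, counting interval 1.10 to 6.27), and 0 and 0 in CAL27. ZNF554 had 19 and 2 reads in SCC15 (log2 ratio 2.21, counting interval 0.93 to 6.13) and 81 and 54 in CAL27 (0.42, -0.09 to 0.95). ZNF630 was below the filter of the test, and the shared effect of ZNF554 did not pass (log2 fold change 1.18 ± 0.69, adjusted p = 0.578). ZNF530, silent in SCC15 with DMSO, had 8 reads there with decitabine, at least 2.22-fold higher.

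Among the genes off in CAL27, the drug had mixed ratios where they were on. In SCC15 the 25 log2 ratios of decitabine over DMSO ran from -1.08 to 0.86 with a median of -0.25. The counting interval lay below 0 for 10 of them, ZNF529, ZNF566 and ZNF680 included, above 0 for ZNF613 and ZNF649, and spanned 0 for 13. With 1 library per treatment these intervals hold counting error and not the spread between cultures.

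Across both lines no zinc finger gene of the group passed the test for decitabine. The edgeR test, with cell line as a term, held 167 of the 219 genes, and 0 were higher and 0 lower at an adjusted p under 0.05. Over all 15427 genes tested, 0.544% were higher (84) and 0.0778% lower (12). At an unadjusted p under 0.05, 4 were higher and 1 lower, against 7.78% and 2.57% of all genes, and DESeq2 gave 0 and 0 at either level. The unadjusted counts moved with the setting: 9 higher and 0 lower with total-count scaling, 2 and 3 with the GC trend removed, and 0 and 0 without the term for line. The 4 were ZNF503, ZNF512B, ZNF608 and ZNF609, and the 1 was ZNF587B, named here after their values were seen. The smallest adjusted p was 0.396. The shared log2 fold changes had a median of -0.08 over the 167 genes, against 0.04 over all genes tested, and those of the 129 genes counted everywhere ran from -0.74 to 1.04. A p that misses the threshold does not show that these genes did not respond.

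Within CAL27 the ratios were small. Of 136 genes with at least 1 CPM in either library, 0 were 2-fold higher with decitabine (5.14% of all genes were) and 2 were 2-fold lower (1.29% of all genes were). Of the protein-coding genes outside the group, 4.45% were 2-fold higher and 0.773% lower. Of the other numbered ZNF genes, 0.99% were higher and 2.48% lower. ZNF616 had 33 reads with decitabine and 75 with DMSO (log2 ratio -1.29, counting interval -1.98 to -0.73), and ZNF585B had 28 and 53 (-1.02, -1.79 to -0.39). In SCC15 both ratios were positive, with 123 and 82 reads for ZNF616 (0.32) and 81 and 59 for ZNF585B (0.19).

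Within SCC15 the spread was wider. Of 159 genes, 11 were 2-fold higher (6.92%, against 13.2% of all genes) and 4 were 2-fold lower (2.52%, against 6.51%). Of the protein-coding genes outside the group, 13.5% were 2-fold higher and 4.22% lower. Of the other numbered ZNF genes, 6.22% were higher and 9.78% lower. The largest ratio in the group was that of ZNF630, below it ZNF554 and, among the genes counted everywhere, ZNF608. ZNF608 had 193 reads with decitabine and 42 with DMSO in SCC15 (log2 ratio 1.89, counting interval 1.45 to 2.46), and 157 and 122 in CAL27 (0.21, -0.14 to 0.56). Its relative ZNF609, whose mouse counterpart binds the cohesin loader Nipbl, had 2087 and 795 reads in SCC15 (1.13) and 836 and 701 in CAL27 (0.10). ZNF703, a corepressor gene amplified in luminal breast cancer, had 1389 and 352 reads in SCC15 (1.71, 1.55 to 1.89), against 158 and 182 in CAL27 (-0.36, -0.68 to -0.04). ZNF629 had 2104 and 685 reads in SCC15 (1.36) and 387 and 447 in CAL27 (-0.36). ZNF668 had 230 and 77 reads in SCC15 (1.30) and 62 and 101 in CAL27 (-0.84). ZNF608, ZNF609, ZNF703, ZNF629 and ZNF668 were singled out after their values were seen.

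The lowest ratios in SCC15 were those of ZNF692 and ZNF512, also singled out after their values were seen. ZNF692 had 116 reads with decitabine and 273 with DMSO in SCC15 (log2 ratio -1.48, counting interval -1.82 to -1.18) and 244 and 194 in CAL27 (0.17). ZNF512 had 214 and 467 reads in SCC15 (-1.38, -1.63 to -1.15) and 350 and 317 in CAL27 (-0.01). ZNF662, off in CAL27, had 51 and 92 reads in SCC15, and ZNF761 had 94 and 159.

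Genes whose ratios had the same sign in both lines had moderate ratios, and none passed the test. ZNF516, an activator of brown fat genes in mice, had 276 and 169 reads in CAL27 with decitabine and with DMSO, and 408 and 193 in SCC15 (log2 ratios 0.55 and 0.81). ZNF503, a relative of ZNF703 known in mice from forebrain and mammary development, had 107 and 69 reads in CAL27, against 760 and 294 in SCC15 (0.47 and 1.10). Its shared log2 fold change of 0.82 ± 0.35 gave the smallest adjusted p of the group, 0.396. ZNF707 had 227 and 124 reads in CAL27, against 285 and 185 in SCC15 (0.71 and 0.36). ZNF517 and ZNF572 were next, at ratios of 0.40 and 0.45 and of 0.37 and 0.54 in CAL27 and SCC15. Several of these effects were smaller once the trend with GC had been removed. The shared log2 fold change was then 0.45 for ZNF503, 0.18 for ZNF707 (0.54 before) and 0.05 for ZNF517 (0.43 before). It was 0.53 for ZNF516 (0.69 before), and for ZNF572 it was larger, at 0.71 (0.48 before). ZNF503 overlaps the antisense transcript ZNF503-AS2, and their reads cannot be told apart without strand.

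In the other direction, ZNF587B had 441 and 604 reads in CAL27 with decitabine and with DMSO, and 212 and 308 in SCC15 (-0.61 and -0.79, adjusted p = 0.434). ZNF684 had 79 and 134 reads in CAL27, against 77 and 89 in SCC15 (-0.90 and -0.46). ZNF511 had 55 and 85 reads in CAL27, against 28 and 37 in SCC15 (-0.76 and -0.62). ZNF557 and ZNF718 had ratios of -0.59 and -0.47 and of -0.52 and -0.51 in CAL27 and SCC15. Removing the GC trend left a shared effect of -0.41 for ZNF684 (-0.70 before, log2) and of -0.18 for ZNF718 (-0.53 before). The effect was then -0.60 for ZNF587B (-0.70 before) and -0.40 for ZNF557 (-0.54 before). For ZNF511 it was stronger, at -0.94 (-0.73 before). Both ratios were positive for 36 of the 167 genes and negative for 46, against 4249 and 3671 of 13160 protein-coding genes tested. The 22 genes off in CAL27 with 0 reads in both libraries there have a CAL27 ratio of 0 and fall in neither count, so these shares are not alike. Over the 129 genes with at least 10 reads in all 4 libraries, both ratios were positive for 32 and negative for 42, a count not made over all genes. These counts are a description, since ratios of many genes shift together with the scaling of a library. The median ratios of the 129 genes were -0.11 in CAL27 and 0.05 in SCC15. Over all 12103 genes with as many reads they were -0.03 and 0.04.

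**Figure D4:**
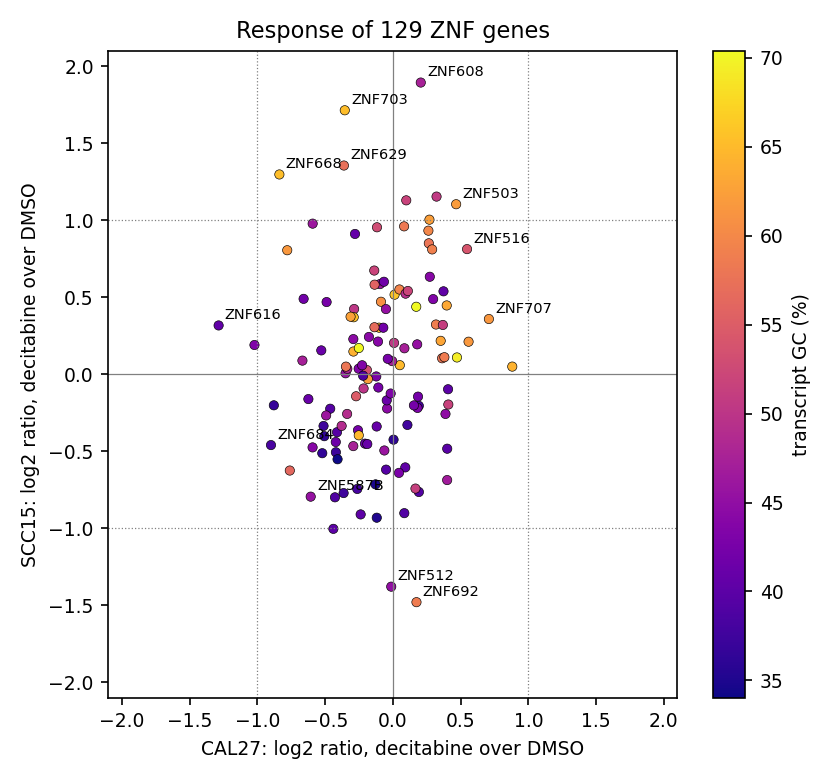
Log2 ratio of decitabine over DMSO in CAL27 (horizontal) and SCC15 (vertical) for the 129 genes with at least 10 reads in all 4 libraries, coloured by transcript GC content. Dotted lines mark 2-fold. The points span -1.29 to 0.88 for CAL27 and -1.48 to 1.89 for SCC15, and genes of low GC lie mostly below 0 in SCC15.

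The ratios varied with the base composition of the transcripts. The median GC content of the longest transcript was 42.8% over the 219 genes, against 49.1% over the other protein-coding genes. Over the 129 genes counted everywhere, Spearman's rho between GC and the ratio was 0.285 in CAL27 and 0.566 in SCC15, against 0.285 and 0.565 over all 12103 such genes. These correlations are across genes of the same libraries and have no p. With the 129 genes in 3 equal groups of rising GC, the median ratio was -0.24, -0.06 and 0.05 in CAL27 and -0.38, 0.04 and 0.37 in SCC15. The SCC15 ratio was positive for 8, 24 and 38 of 43 genes in these groups. Between the lines, rho was 0.210 over the 129 genes and 0.0353 once the trend with GC had been removed from both. Over all 12103 genes the same values were 0.294 and 0.182.

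**Figure D5:**
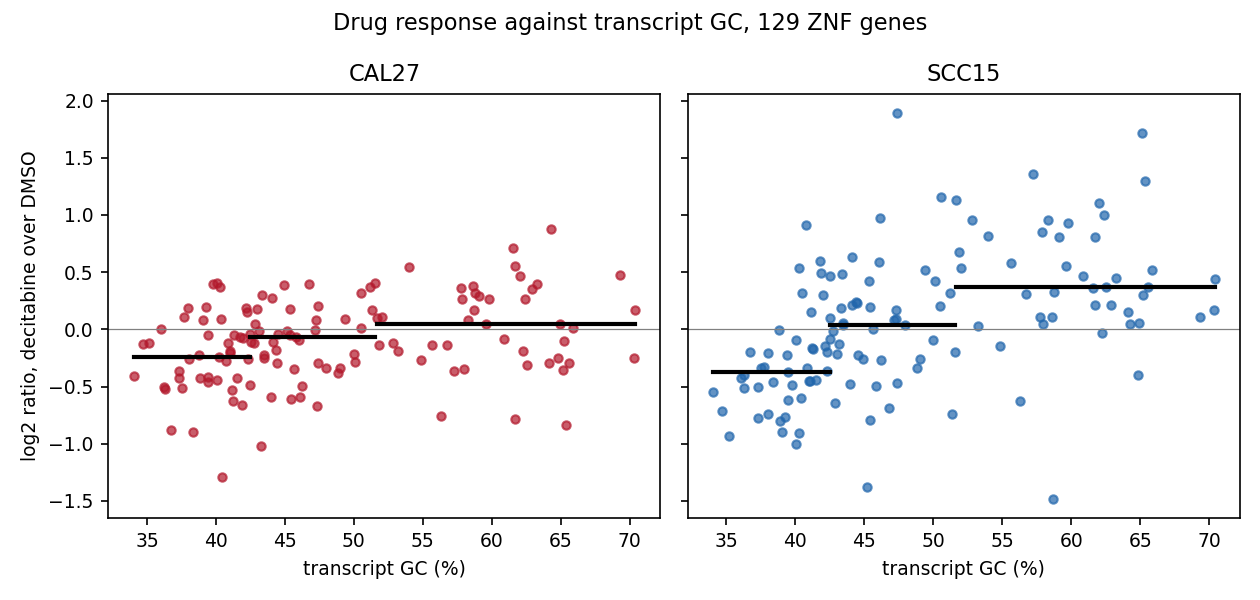
Log2 ratio of decitabine over DMSO against transcript GC content for the 129 genes in CAL27 (left) and SCC15 (right), with black bars at the median of each group of 43 genes. In SCC15 the medians are -0.38, 0.04 and 0.37 from low to high GC, and in CAL27 -0.24, -0.06 and 0.05.

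The lines also differed in genes that both of them expressed. Of the 129 genes with at least 10 reads in all 4 libraries, 10 were higher in CAL27 (7.75%, against 17.4% of all such genes) and 22 were lower (17.1%, against 20.4%). Among all 167 tested, 18 were higher and 51 lower (22.7% and 21.6% of all genes), a count that includes the 30 genes off in one line. ZNF700 had 31 and 32 reads in CAL27 with decitabine and with DMSO, and 193 and 221 in SCC15 (log2 fold change -2.71 ± 0.45, adjusted p = 4.47e-06). ZNF503 was lower in CAL27 by the counts given above (-2.47 ± 0.37, adjusted p = 6.1e-07), and so was ZNF703 (-2.05 ± 0.38, adjusted p = 2.51e-05). ZNF580 and ZNF581, adjacent genes with overlapping exons, had 124 and 75 and 220 and 191 reads in CAL27, with decitabine and with DMSO, and 593 and 427 and 835 and 475 in SCC15. Higher in CAL27 were ZNF641, with 234 and 198 reads in CAL27, against 69 and 51 in SCC15 (1.85 ± 0.41, adjusted p = 0.000342), and ZNF652, with 412 and 427 reads in CAL27, against 160 and 183 in SCC15 (1.29 ± 0.34, adjusted p = 0.00229). Apart from ZNF503, these genes were chosen after their values were seen.

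Genes between the classes showed intermediate cases. ZNF506 had 10 and 8 reads in CAL27, against 203 and 174 in SCC15 (log2 fold change -4.37 ± 0.54, adjusted p = 1.23e-08). ZNF711, an X-linked gene of intellectual disability that acts with a histone demethylase, had 7 and 3 reads in CAL27, against 91 and 110 in SCC15 (-4.31 ± 0.68, adjusted p = 2.02e-06). ZNF506 and ZNF711 had at least 10 reads in both libraries of a line only in SCC15, and ZNF595 only in CAL27. Each of them thus entered the test only through the line in which it is high. ZNF595 had 52 and 70 reads in CAL27, against 17 and 6 in SCC15 (2.46 ± 0.69, adjusted p = 0.00352). ZNF750, a differentiation factor of squamous epithelium, had 1 and 0 reads in CAL27, against 0 and 6 in SCC15. These 4 genes were named after their values were seen.

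The 6 genes listed as reported methylated in carcinomas were low throughout. ZNF582 and ZNF667 had 0 reads in all 4 libraries. ZNF677, a suppressor gene silenced by methylation in lung and thyroid cancer, had 0 and 0 reads in CAL27 with decitabine and with DMSO, and 2 and 0 in SCC15. ZNF671 had 4 and 9 reads in CAL27, against 3 and 9 in SCC15. ZNF577 had 0 and 0 reads in CAL27, against 40 and 55 in SCC15, at least 31.7-fold lower in CAL27 (adjusted p = 5.38e-06). ZNF569 had 0 and 1 reads in CAL27, against 26 and 19 in SCC15 (adjusted p = 0.00102). ZNF577 and ZNF569 are both off in CAL27 as defined above, so they entered the line test only through SCC15. None of the 6 had 10 reads with decitabine in a line where it was at or below 3 with DMSO. The 2 that could be tested for the drug, ZNF569 and ZNF577, did not pass (adjusted p = 0.986 and 0.853).

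The partners of KRAB zinc finger proteins did not pass the test for decitabine either. Of 25 listed cofactors and heterochromatin proteins found in the table, 24 were tested, all but ZFP57, which had 3 and 1 reads in CAL27, against 4 and 0 in SCC15. Of the 24, 0 were higher and 0 lower with decitabine. The median of their log2 ratios was -0.16 for CAL27 and 0.10 for SCC15, against 0.00 and 0.05 over all genes tested. TRIM28, the scaffold that KRAB domains bind, had 7773 and 7841 reads in CAL27 with decitabine and with DMSO, and 14460 and 11309 in SCC15. CHD3, the remodeller of the deacetylase complex, had the largest shared log2 fold change, 0.81 ± 0.29 (adjusted p = 0.267), and CBX3, a heterochromatin protein, the lowest, -0.44 ± 0.29 (adjusted p = 0.636). Between the lines, 0 of the 24 were higher and 9 lower in CAL27, against 22.7% and 21.6% of all genes tested, with a median log2 fold change of -0.37. The 9 were CBX5, MTA1, CHD3, SMARCAD1, FAM208A (TASOR of the HUSH complex), GATAD2B, MBD3, SETDB1 and TRIM28. CBX5, heterochromatin protein 1 alpha, had 1237 and 1375 reads in CAL27, against 9923 and 4856 in SCC15 (-2.42 ± 0.32, adjusted p = 4.69e-08). SETDB1 had 278 and 276 reads in CAL27, against 565 and 442 in SCC15 (-0.86 ± 0.32, adjusted p = 0.0289), and TRIM28 was lower by a smaller amount (-0.72 ± 0.29, adjusted p = 0.0394).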

How the data were processed

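The authors deposited raw read counts for every gene and, beside them, their own FPKM values, and both entered as deposited. The submitters' processing notes name GRCh38, HISAT2 and HTSeq 0.13.5. Whether counting used strand is not given in the sources available for this work. Per the labels' protocols the NEBNext Ultra kit was used, and no molecular identifiers are named, so limits and intervals hold counting error only. Samples were grouped by line and treatment from their titles.

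All 219 identifiers matched GENCODE 29 (GRCh38), which gave coordinates, transcript GC and exon overlap. Promoter windows came from RefSeq (GRCh38.p14). The members, gene lists and naming rule were chosen with earlier results of these data known.

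Tests used R 4.3.3, edgeR 4.0.16 (quasi-likelihood F test, TMM scaling, filterByExpr with minimum count 10 and minimum total 15, Benjamini-Hochberg over 15427 genes, threshold 0.05) with terms for cell line and treatment. The block pairs libraries of the same cell line, as the labels give it, and leaves 1 residual degree of freedom, so the spread is mostly shared across genes (prior degrees of freedom 36.13). The test was tried on simulated counts first. Within a line, ratios are on the log2 scale from TMM-scaled CPM (prior count 2), with exact conditional binomial 95% intervals of the deposited counts and no test. Alternatives were other scalings, no filter or a minimum count of 30, DESeq2 1.42.0, limma 3.58.1 on log2(FPKM + 1) and log2(FPKM + 0.1), removal of the GC trend, no block, and other limits for off and on.

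Genes named in the text are those called for the drug, the 5 with the largest ratio of one sign in both lines in each direction, up to 8 off in each line by reads in the other, those passing 10 reads with the drug, the 5 highest by mean FPKM, the methylation list, the cofactors called or at the extremes, and the 3 largest line differences in each direction. Other genes of the group were named after their values were seen, and not each of them is marked so where it appears. Among those without a mark are ZNF616, ZNF585B, ZNF662, ZNF761 and several genes with ratios of opposite sign in the lines.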

Additional observations from a re-analysis of the deposited data

Results flagged for a closer look

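In 11 genes counted in all 4 libraries, decitabine went with a higher scaled count in one line and a lower scaled count in the other. Both counting intervals were clear of 0 with TMM scaling. The signs alone were kept under total-count scaling and after removal of the GC trend. The difference between the lines was not tested, since each line has 1 library per treatment. Without the demand on scaling, 14 of 140 genes (10%) were of this kind, against 12.3% of 12743 other protein-coding genes, so the share does not stand out.

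Lower with decitabine in CAL27 and higher in SCC15 were 8 of them, given as log2 ratios in CAL27 and in SCC15. ZNF703 stood at -0.36 and 1.71, ZNF629 at -0.36 and 1.36, and ZNF668 at -0.84 and 1.30. ZNF749 stood at -0.59 and 0.98, ZNF710 at -0.78 and 0.81, and ZNF592 at -0.14 and 0.67. With total-count scaling the CAL27 ratio of ZNF592 was -0.0014, so its lower value in CAL27 depends on the scaling. ZNF704 stood at -0.66 and 0.49, and ZNF562 at -0.49 and 0.47.

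Higher in CAL27 and lower in SCC15 were the other 3. ZNF597 stood at 0.40 and -0.48, ZNF789 at 0.40 and -0.69, and ZNF587 at 0.39 and -0.26. ZNF587 and ZNF587B are close copies, so reads may be shared between them.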

How the results depend on the processing

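That 0 of the genes described were higher and 0 lower with decitabine held under every alternative run. Over all genes, the 84 higher and 12 lower calls became 313 and 21 with total-count scaling, 155 and 21 with no filter, 1 and 1 with limma on log2(FPKM + 1), 46 and 7 after removal of the GC trend, and 27 higher with DESeq2. Without the replicate block, that is without the pairing by cell line, 0 and 0 were called. Leaving out any library leaves no residual degree of freedom, and the values are then the ratios of the other line, given above without a test. Total-count scaling gave 1 gene 2-fold higher and 1 lower in CAL27, and a minimum of 5 CPM gave 1 lower. Genes passing from off to on with decitabine in CAL27 were 0 with off at 0 reads, 0 with on at 30 reads and 0 on the CPM limits. In SCC15 they were 0 with off at 0 reads and 0 with on at 30 reads. With off at 0 reads, 1 gene rather than 5 was off in SCC15, and the count for CAL27 was within 1.5 times of 25 under all limits tried. Small effects changed sign: ZNF768 with decitabine was at -0.087 and ZNF598 at -0.36 after removal of the GC trend, and ZNF787 at 0.037 with total-count scaling, 0.0351 and 0.0356 with limma (pseudocounts 1 and 0.1) and 0.0039 without the block. The ZNF598 line difference was 0.0933 with total-count scaling, 0.0873 and 0.0927 with limma and 0.17 after removal of the GC trend. None of these passed a threshold. The shared effect of ZNF554 was 0.67 without the block and 0.27 with limma at a pseudocount of 1, which lowers the effects of genes at low FPKM. Of the line calls of named genes, those of ZNF566, ZNF649 and ZNF569 did not pass with DESeq2. Total-count scaling moved the median line difference of all genes to 0.15, against 0.00 with TMM. Depth limits genes at a few reads, where a change cannot be told from counting error.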
